A study of Mus musculus with 4 samples.

Results

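The 10 genes of glucose use described here were followed in neutrophils from the tumors and the blood of the same mice: 6 enzymes of the pentose phosphate pathway (G6pdx, Pgls, Pgd, Rpia, Tkt and Taldo1), the glucose transporters Slc2a1 and Slc2a3, and the enzymes Pfkfb3 and Pfkfb4. These 10 were named by symbol, out of 18894 genes listed in the series, and all 10 were in the deposited files. They were named because several were already known to be lower in the tumor cells, so their levels in tumor against blood are given as a description, without a test. Both groups were untreated FVB mice, an inbred strain, injected with Py7160 cells, a line derived from a mouse mammary tumor, and sampled 2 to 3 weeks later, when tumors were about 1 cm across. The age of the mice is not given in the labels. Tumors were digested with enzymes and blood had its red cells lysed, and both were then enriched through Ly6G and sorted on CD11b and Ly6G. Each mouse carried its own hashtag antibody, and the cells of 3 mice were pooled into 1 Drop-seq library per tissue. Tissue, library and the way the cells were released therefore cannot be told apart, and the hashtag numbers 1 to 3 are not stated to mark the same mouse in both tissues.

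The pentose phosphate pathway branches off glycolysis at glucose 6-phosphate. Its oxidative arm (glucose 6-phosphate dehydrogenase, encoded by G6pdx, then Pgls and Pgd) makes NADPH, and its other arm (Rpia, Tkt and Taldo1) shuffles sugar phosphates between pentoses and glycolytic intermediates. In neutrophils NADPH feeds the oxidase that makes superoxide and the reductases that keep glutathione and thioredoxin reduced. Slc2a1 (GLUT1) and Slc2a3 (GLUT3) carry glucose into the cell, and Pfkfb3 and Pfkfb4 make and break fructose 2,6-bisphosphate, the metabolite that switches on phosphofructokinase and so directs glucose phosphate down glycolysis.

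The analysis used 841 tumor cells (106, 564 and 171 in mice 1, 2 and 3) with 572844 UMIs, unique RNA molecules, and 1375 blood cells (511, 456 and 408) with 1147068 UMIs. Median UMIs per cell were 570 to 586 in the tumor mice and 647.5 to 671 in the blood mice. Neutrophil markers were all detected (8 of 8) in both tissues, at 69706 to 83644 CPM (UMIs scaled to a common library total) in tumor and 178528 to 206205 CPM in blood. Monocyte or macrophage markers (12 genes, all detected in tumor, 7 in blood, where C1qa, C1qb, C1qc, Mrc1 and Ms4a7 were at 0) summed to 594.8 CPM in tumor mouse 1 but to 3988 and 4048 CPM in tumor mice 2 and 3, against 575 to 687 CPM in blood. The 5 erythroid markers were all at 0 in tumor and at 13960 to 22155 CPM in blood. T or NK, B, eosinophil or mast, platelet, tumor epithelium, fibroblast and endothelial markers each stayed at or below 42.8 CPM per mouse in tumor and 228.9 CPM in blood. Tumor mouse 2 stood apart in holding 564 of the 841 tumor cells, a number that fell to 235 when the mice were called by HTODemux instead. No assigned cell of a tissue shared its barcode with one of the other tissue. The part of these cells in the differences between the tissues was not tested, apart from the values given beside each result.

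The oxidative arm was lower in tumor neutrophils than in blood neutrophils. G6pdx, the entry enzyme, stood at 42.5, 23.4 and 25.7 CPM in tumor mice 1 to 3 (3, 9 and 3 UMIs) and at 211, 189 and 151 CPM in blood mice 1 to 3 (92, 72 and 50 UMIs). Every blood mouse lay above every tumor mouse, and the fitted log2 fold of tumor over blood was -2.75 (SE 0.317). Pgd, which makes the second NADPH and releases carbon dioxide, was at 113, 125 and 111 CPM in tumor and at 483, 529 and 397 CPM in blood, a log2 fold of -1.93 (SE 0.199). The tumor mice were close together for Pgd, and the groups did not overlap. Pgls, the lactonase between these enzymes, was barely counted, with 0, 10 and 3 UMIs in tumor and 6, 14 and 11 in blood. At 0, 25.9 and 25.7 CPM in tumor and 13.7, 36.8 and 33.3 CPM in blood its groups overlapped, and the 0 in tumor mouse 1 allows up to 42.5 CPM (3 UMIs).

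The other arm was led by Taldo1, transaldolase, the most abundant of the 10 genes. It was at 552, 573 and 659 CPM in tumor and at 1445, 1684 and 1517 CPM in blood, a log2 fold of -1.35 (SE 0.136). Tkt, transketolase, was at 42.5, 114 and 145 CPM in tumor and at 284, 260 and 227 CPM in blood, a log2 fold of -1.18 (SE 0.245). Both were lower in every tumor mouse than in every blood mouse, although Tkt rested on only 3 UMIs in tumor mouse 1. Rpia, the ribose phosphate isomerase, had 2, 6 and 3 UMIs in tumor and 10, 6 and 3 in blood, and its groups overlapped. G6pdx and Pgd differed more than Taldo1, so their share of the pathway's UMIs, taken without Pgls, was lower in the tumor mice. G6pdx and Pgd held 20%, 17.4% and 14.2% of the UMIs of G6pdx, Pgd, Rpia, Tkt and Taldo1 in the tumor mice and 28.4%, 26.8% and 23.8% in the blood mice. Over the mice this was 84 of 496 UMIs in tumor (16.9%, exact 95% interval 13.7 to 20.5%) and 757 of 2846 in blood (26.6%, 24.98 to 28.3%), intervals that cover counting error only.

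**Figure D1:**
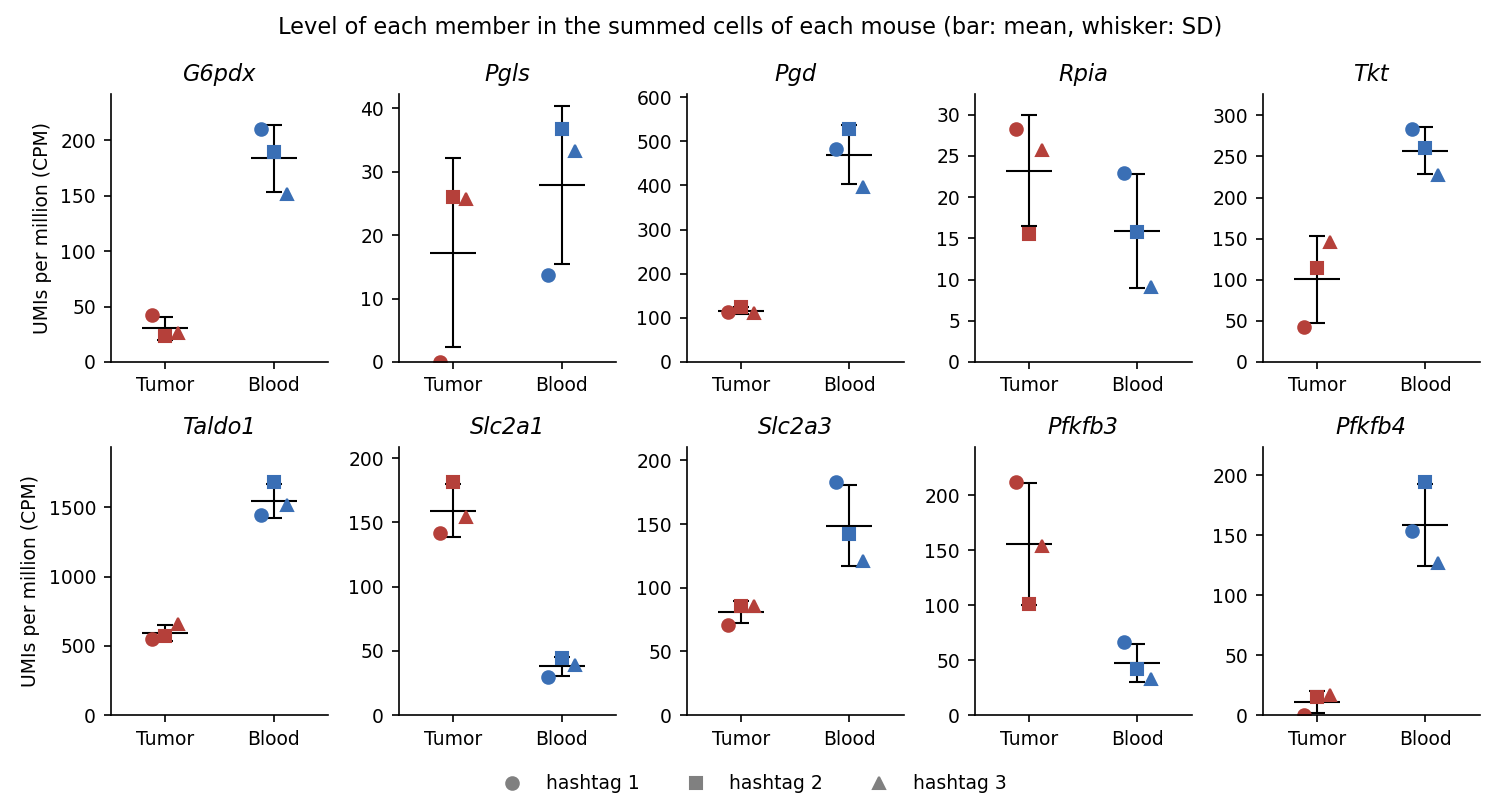
Level (CPM) of each gene in the summed cells of each mouse (points, shaped by hashtag number), with the mean (bar) and SD (whisker) of 3 mice, tumor in red and blood in blue; each vertical axis starts at 0 and has its own scale. Points of the 2 tissues overlap for Pgls and Rpia and lie apart for the other genes, with tumor above blood for Slc2a1 and Pfkfb3.

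The glucose transporters went opposite ways. Slc2a1 was at 142, 182 and 154 CPM in tumor (10, 70 and 18 UMIs) and at 29.8, 44.7 and 39.4 CPM in blood (13, 17 and 13 UMIs), a log2 fold of 2.19 (SE 0.270). Slc2a3, the high-affinity transporter of neutrophils, was at 70.8, 85.6 and 85.6 CPM in tumor and at 183, 142 and 121 CPM in blood, a log2 fold of -0.81 (SE 0.257). Neither gene's groups overlapped, so the order of these transporters in the assigned cells was turned round between the tissues. It was not turned round in barcodes with only 20 to 60 UMIs, which entered no comparison. There Slc2a3 stood above Slc2a1 in tumor (194 against 89.5 CPM) and in blood (405 against 32.4 CPM). Drop-seq counts molecules at their poly(A) ends, so UMIs of different genes were set side by side without a length term. How fully each gene's molecules were counted was not tested, so an order of genes within a tissue is one of UMIs only. Slc2a1 held 66.7%, 68.0% and 64.3% of the UMIs of the pair in the tumor mice (98 of 146 in all) and 14.0%, 23.9% and 24.5% in the blood mice (43 of 217). The difference in Slc2a3 was the least firm of the 8 and shrank to a log2 fold of -0.56 without cells holding markers of another cell type.

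The PFKFB pair showed the same exchange. Pfkfb3, whose enzyme mostly makes fructose 2,6-bisphosphate, was at 212, 101 and 154 CPM in tumor (15, 39 and 18 UMIs) and at 66.4, 42.1 and 33.3 CPM in blood (29, 16 and 11 UMIs), a log2 fold of 1.48 (SE 0.328). Pfkfb4 was at 0, 15.6 and 17.1 CPM in tumor (0, 6 and 2 UMIs) and at 153, 195 and 127 CPM in blood (67, 74 and 42 UMIs). Its log2 fold of -3.43 (SE 0.409) was the lowest of the 10, and the 0 in tumor mouse 1 allows up to 42.5 CPM. Pfkfb3 held 100%, 86.7% and 90.0% of the pair's UMIs in the tumor mice and 30.2%, 17.8% and 20.8% in the blood mice.

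**Figure D2:**
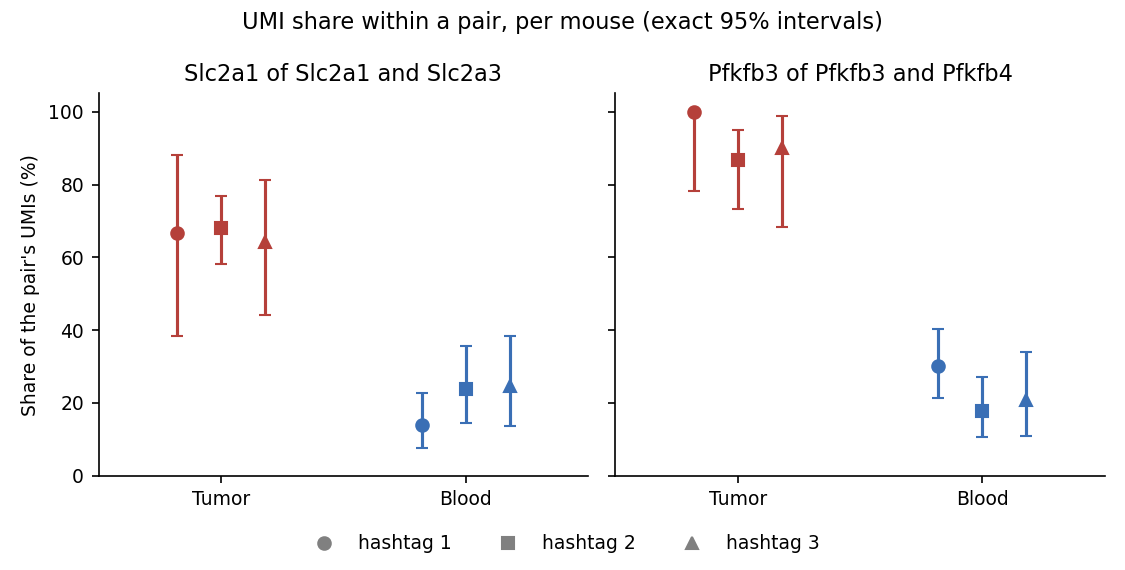
Share of a pair's UMIs held by Slc2a1 (left, of Slc2a1 and Slc2a3) and by Pfkfb3 (right, of Pfkfb3 and Pfkfb4) in each mouse, in percent, with exact 95% intervals for counting error. The 3 tumor mice lie between 64.3% and 68.0% for Slc2a1 and between 86.7% and 100% for Pfkfb3, above all blood mice (at most 24.5% and 30.2%).

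In all, 8 of the 10 genes passed the low-count filter, 2 higher and 6 lower in tumor, and all 8 had groups that did not overlap. Over the 3674 genes tested, 60% were called at an adjusted p under 0.05 with edgeR (30.2% higher and 29.8% lower), and 63% had groups that did not overlap. Since the genes were chosen on this contrast, nothing is read from the counts. Cells with at least 441 UMIs were thinned to 441, and shallower cells were left out. The share of the thinned cells with at least 1 UMI was 1.04% ± 0.460 (SD, n = 3) in tumor and 6.41% ± 1.78 in blood for G6pdx, and 21.6% ± 0.304 and 48.2% ± 3.73 for Taldo1. For Slc2a1 it was 7.11% ± 1.06 in tumor and 1.87% ± 0.461 in blood, and for Pfkfb4 0.491% ± 0.430 and 6.77% ± 1.45. Without thinning, and over all cells, the shares were 2.06% and 11.5% (G6pdx), 26.0% and 64.3% (Taldo1), 9.44% and 3.07% (Slc2a1) and 0.744% and 11.8% (Pfkfb4). Barcodes with only 20 to 60 UMIs, which may carry free RNA, had the same order between the tissues for G6pdx (14.9 CPM in tumor, 113 CPM in blood), Taldo1 (187 and 288 CPM), Slc2a1 (89.5 and 32.4 CPM) and Pfkfb4 (22.4 and 174 CPM). The part of free RNA in the cells' levels was not tested.

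Cells with at least 2 UMIs of markers of 1 other cell type were flagged. Erythroid markers did not count in this rule, here or wherever such cells are counted or left out. Flagged cells made up 10.1% of tumor cells and 11.8% of blood cells. They held 42.2% of Tkt UMIs in tumor and 47.0% in blood, and 33.3% and 36.0% of G6pdx UMIs, but 16.9% and 17.1% of Taldo1 UMIs. Without them the log2 folds of tumor over blood stayed negative for G6pdx, Pgd, Tkt, Taldo1, Slc2a3 and Pfkfb4. The genes whose levels over the 6 sums lay nearest to the mean profile of G6pdx, Pgd, Tkt and Taldo1 were Rin3, Pilra and Mpzl3, at root mean square distances of 0.09, 0.10 and 0.12 on the log2 scale.

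On the mouse genome (GRCm38, the assembly that UCSC calls mm10) the pathway's enzymes are encoded by G6pdx at chrX:74409483-74429194, Pgd at chr4:149149991-149166771, Rpia at chr6:70765720-70792232 (all on the minus strand), Pgls at chr8:71592176-71601092, Tkt at chr14:30548359-30574720 and Taldo1 at chr7:141392199-141402968 (plus strand). Slc2a1 lies at chr4:119108711-119137983 and Pfkfb4 at chr9:108991778-109032228 (plus strand), and Slc2a3 at chr6:122727809-122801640 and Pfkfb3 at chr2:11471433-11554077 (minus strand). All 10 are protein-coding in GENCODE. Promoters of 9 of the 10 genes were found in RefSeq (GRCm38.p6), and Slc2a3, which had none there, was not searched. The others were searched on both strands for ACGTG, a form of the core bound by hypoxia-inducible factors, and for TGACNNNGC. The latter is the core of the antioxidant response element bound by Nrf2. Other forms of the hypoxia core were not searched, so their absence from a window is not shown. The windows ran from 250 bases before a start site to 50 bases after it, and 19.6% of 32851 such promoters in the mouse held ACGTG and 12.4% held TGACNNNGC. The 100 bases before the start are shown for Slc2a1, Pfkfb3, Pfkfb4 and G6pdx, with the motif in capitals.

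Slc2a1, chr4:119108645-119108744, plus strand: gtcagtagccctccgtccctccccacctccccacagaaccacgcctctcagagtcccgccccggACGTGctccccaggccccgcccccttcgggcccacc
Pfkfb3, first promoter, chr2:11553930-11554029, minus strand: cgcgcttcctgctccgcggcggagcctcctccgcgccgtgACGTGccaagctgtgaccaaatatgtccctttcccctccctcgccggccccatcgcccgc
Pfkfb3, second promoter, chr2:11502091-11502190, minus strand: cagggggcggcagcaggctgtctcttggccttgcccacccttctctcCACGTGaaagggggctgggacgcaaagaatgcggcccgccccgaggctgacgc
Pfkfb4, chr9:108991802-108991901, plus strand: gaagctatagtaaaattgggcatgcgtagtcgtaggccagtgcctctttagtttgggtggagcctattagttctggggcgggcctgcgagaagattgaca
G6pdx, chrX:74428881-74428980, minus strand: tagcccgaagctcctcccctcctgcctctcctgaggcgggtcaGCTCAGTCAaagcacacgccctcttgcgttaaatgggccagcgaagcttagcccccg

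Counted from the start site as 0, ACGTG lay at -36 to -32 in Slc2a1 and at -60 to -56 in the first promoter of Pfkfb3. In the second promoter of Pfkfb3 it was found on both strands, inside the E-box CACGTG at -53 to -48, which 7.15% of promoters held. The window of Pfkfb4 held neither ACGTG nor TGACNNNGC. G6pdx held TGACNNNGC on the opposite strand at -57 to -49 and ACGTG at 29 to 33, after the start. Pgd held TGACNNNGC at 3 to 11 of its second promoter. The other windows held none of these letters, and a match of letters is not a measured binding site.

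Variation among tumor cells was a measure that the choice of the genes had not used. Cells of each tumor mouse were split at the mouse's median share of UMIs from 16 hypoxia-induced genes such as Vegfa, Bnip3 and Egln3, none of them among the 10. Slc2a1 was higher in the cells above the median, at 276, 270 and 192 CPM in mice 1 to 3 (9, 48 and 10 UMIs) against 26.3, 106 and 123 CPM below it (1, 22 and 8 UMIs). The direction was the same in 3 of 3 mice. In the fit without a low-count filter, with the mouse as a block, the log2 fold was 1.20 (SE 0.425, edgeR adjusted p = 0.149) and was not called. With the filter it was 1.26 (SE 0.413, edgeR adjusted p = 0.0241), but Slc2a1 reached the filter's 171 CPM only in the 3 sums of the cells above the median and in 0 of the 3 below it. A gene that passes in this way had to differ, so the call is not taken as support. Without mouse 1 the log2 fold with the filter was 1.00 and not called, and DESeq2 did not call it. Slc2a1 and Taldo1 were the only genes of the 10 that passed the filter, and of all 888 genes that did, 36.4% were called (17% higher and 19.4% lower). Pfkfb3, the other gene higher in tumor, showed no common direction: its 34 UMIs above the median and 38 below gave 276, 95.7 and 154 CPM against 158, 106 and 154 CPM.

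Of the 6 pathway enzymes, 4 had lower values in the cells above the median in 3 of 3 mice, and none was called. The share of all genes with a common direction in 3 of 3 mice was not counted in any split. Nothing is read from such counts. Taldo1 was at 491, 524 and 461 CPM in the cells above the median and at 605, 616 and 818 CPM below it, a log2 fold of -0.52 (SE 0.216) that was not called (edgeR adjusted p = 0.0721). It was the only pathway enzyme with enough UMIs to be tested. G6pdx had 2 UMIs above the median and 13 below, Pgd had 19 and 50, and Tkt had 16 and 48. Pgls lay the other way, with 9 UMIs above the median and 4 below, higher in 2 mice and at 0 on both sides in mouse 1 (log2 fold 1.16, SE 1.2, without the filter). Rpia had 4 and 7 UMIs and was higher above the median in 1 of 3 mice. Slc2a3 had 18 and 30 UMIs and was also lower in 3 of 3 mice. From the fit without the filter the log2 folds were -2.41 (SE 1.12) for G6pdx, -1.25 (SE 0.504) for Pgd, -1.59 (SE 0.538) for Tkt and -0.75 (SE 0.585) for Slc2a3, and none was called with edgeR. The cells below the median also held more neutrophil markers (113782 against 40665 CPM), more of the immature granule genes used for blood (14896 against 1968 CPM) and more monocyte or macrophage markers (5643 against 1140 CPM).

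Splitting the tumor cells by 10 genes of circulating neutrophils, such as Retnlg, Csf3r and Cxcr2, gave no call among the 10 genes with edgeR or with DESeq2, against 33.4% of 884 genes tested. Neutrophil markers, some of them in the list, summed to 127099 CPM in the cells above the median and 29034 CPM below it. Immature granule genes, of which Mmp8 is also in the list, stood at 14979 and 2400 CPM, and monocyte or macrophage markers at 1035 and 6374 CPM. The part of these in the values that follow was not tested. Only Taldo1 and Slc2a1 passed the filter, with log2 folds of 0.43 (SE 0.224, edgeR adjusted p = 0.141) and -0.40 (SE 0.403, edgeR adjusted p = 0.477), and Slc2a1 passed only through the cells below the median. Slc2a3 was at 112, 123 and 149 CPM in the cells above the median (4, 25 and 9 UMIs) and at 28.8, 44.0 and 17.6 CPM below it (1, 8 and 1 UMIs). Pgd was at 167, 172 and 166 CPM against 57.5, 71.5 and 52.9 CPM. Neither gene's groups overlapped, but the share of all genes without overlap was not counted in this split. Pfkfb3 was also higher above the median in 3 of 3 mice, at 307, 108 and 233 CPM against 115, 93.5 and 70.6 CPM (log2 fold 1.10, SE 0.450, without the filter), although it had been higher in tumor than in blood. G6pdx had 13 and 2 UMIs and was higher in 3 of 3 mice, whereas Tkt (41 and 23 UMIs) and Pfkfb4 (5 and 3) were higher in 1 of 3 and Rpia (8 and 3) in 2 of 3. Pgls, with 2 and 11 UMIs, was lower above the median in 2 mice and at 0 on both sides in mouse 1 (log2 fold -2.05, SE 1.35). Without the filter Slc2a3 passed the threshold (log2 fold 2.07, SE 0.615, edgeR adjusted p = 0.0404) and Pgd did not (1.61, SE 0.497, edgeR adjusted p = 0.0542). In that fit 5 of the 10 genes had an unadjusted edgeR p under 0.05, where 6.63% of all 12694 genes fitted had one. The same count was 5, against 7.09%, in the hypoxia split and 6, against 7.63%, in the granule split of blood. Only 884 of those 12694 pass the filter here, and genes with few UMIs seldom reach such a p. The shares are therefore not alike, and nothing is read from them.

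Blood neutrophils differed among themselves in the pathway. Cells of each blood mouse were split by their share of UMIs from 10 immature granule genes, such as Camp, Ngp, Ltf and Lyz2. The list is not exclusive to young neutrophils, as its Mmp8 is also among the circulating neutrophil genes. Of the 6 genes with enough UMIs, 4 were higher in the cells above the median and 0 lower, where 19% of 2235 genes tested were called (10.9% higher and 8.14% lower). Tkt, transketolase, was at 379, 350 and 302 CPM above the median and 131, 129 and 119 CPM below it. Its log2 fold was 1.69 (SE 0.215, edgeR adjusted p = 6.52e-13). G6pdx was at 264, 235 and 230 CPM against 125, 123 and 37.1 CPM, a log2 fold of 1.57 (SE 0.249, edgeR adjusted p = 1.72e-08). For both genes the groups of cells did not overlap between mice, and every mouse had the same direction. The shares of all genes that did so were not counted in this split.

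Slc2a3 and Pgd differed less in blood. Slc2a3 was at 227, 155 and 148 CPM above the median and at 113, 123 and 81.6 CPM below it, a log2 fold of 0.99 (SE 0.263, edgeR adjusted p = 0.00215). Pgd was at 539, 559 and 420 CPM against 394, 485 and 363 CPM, a log2 fold of 0.54 (SE 0.145, edgeR adjusted p = 0.00227), and its groups overlapped although all mice moved the same way. Taldo1, which shares its arm of the pathway with Tkt, was at 1431, 1650 and 1484 CPM above the median and at 1467, 1733 and 1564 CPM below it. Its log2 fold of 0.18 (SE 0.107, edgeR adjusted p = 0.249) was not called and turned to -0.06 without TMM scaling, which moved the median of all genes by -0.24. Pfkfb4, at 126, 195 and 123 CPM against 197, 194 and 133 CPM, had a log2 fold of -0.01 (95% interval -0.49 to 0.46). Pgls, Rpia, Slc2a1 and Pfkfb3 were below the filter, with 23 and 8, 11 and 8, 23 and 20, and 37 and 19 UMIs above and below the median.

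**Figure D3:**
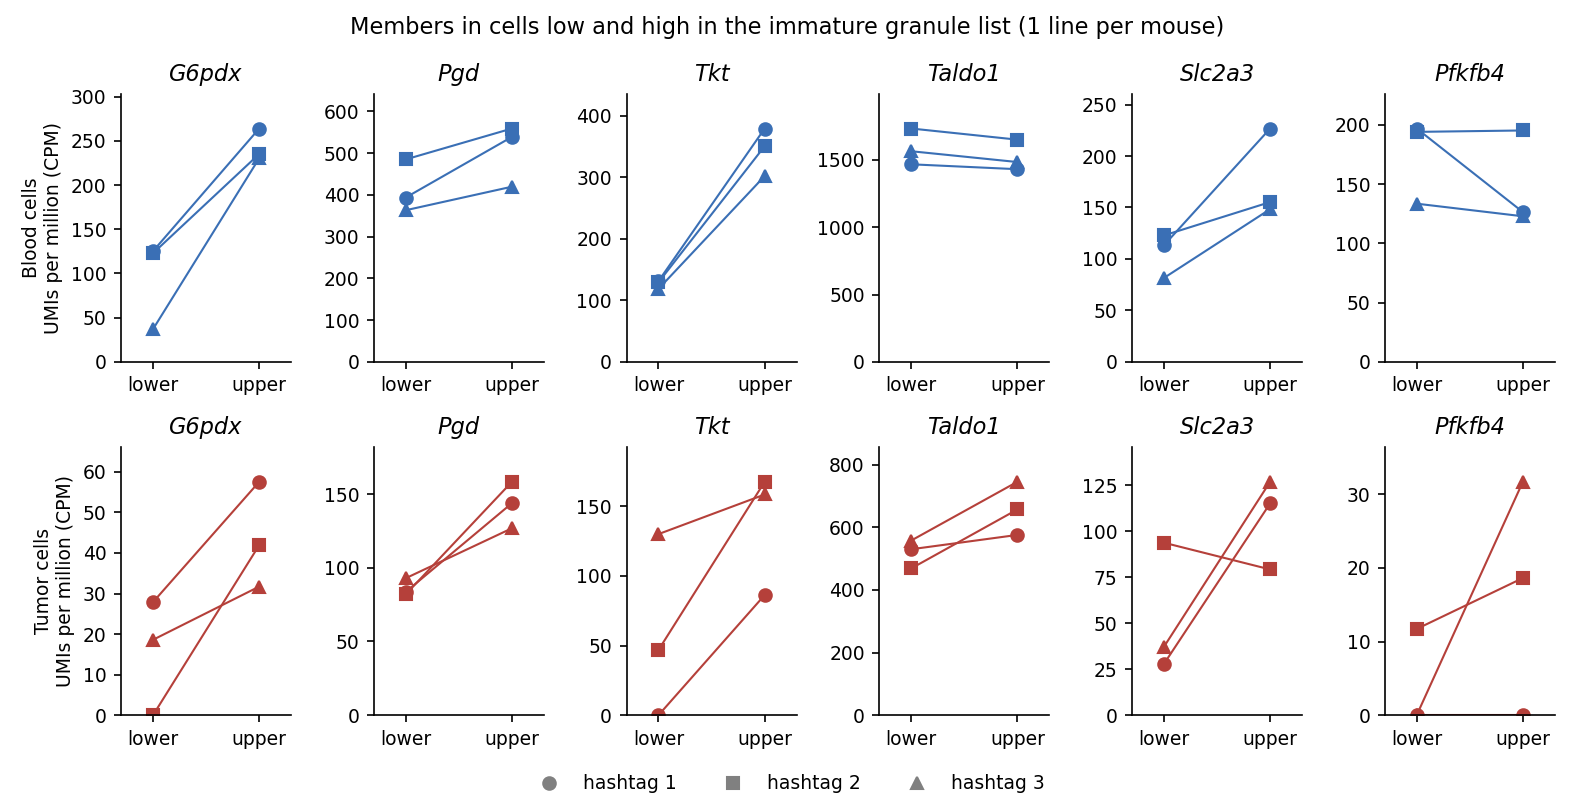
Level (CPM) in cells below (lower) and above (upper) their mouse's median share of immature granule genes, 1 line per mouse, in blood (top) and tumor (bottom); vertical axes start at 0 and differ between panels. Tkt and G6pdx rise in all 3 blood mice, from at most 131 and 125 CPM to at least 302 and 230 CPM, while Taldo1 lies slightly lower in the upper group of each blood mouse and higher in each tumor mouse.

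The 2 groups of blood cells differed in other ways too. Cells above the median were deeper (median 779, 790.5 and 730.5 UMIs against 571.5, 592.5 and 571.5), and 56, 37 and 26 of them held markers of another cell type against 10, 20 and 13. Their monocyte or macrophage markers summed to 767 against 413 CPM and their erythroid markers to 6940 against 31415 CPM. When the cells were split within 5 bins of depth, the log2 fold was 1.38 for Tkt and 1.21 for G6pdx, and without cells holding markers of another type it was 1.02 (edgeR adjusted p = 0.0107) for Tkt and 1.23 (0.00861) for G6pdx. Tkt kept its call in every alternative run in blood. Without blood mouse 1 only Tkt was called: the edgeR adjusted p was 0.0663 for G6pdx, 0.198 for Pgd and 0.213 for Slc2a3. Slc2a3 dropped to a log2 fold of 0.11 when cells were limited to 5% mitochondrial UMIs.

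The same granule genes were then used to split the tumor cells, where they were scarcer (3866, 10790 and 6093 CPM in tumor mice 1 to 3, against 17815, 20428 and 12250 CPM in blood). G6pdx had 13 UMIs above the median and 2 below, Pgd 47 and 22, Tkt 49 and 15, and Taldo1 208 and 129, and each was higher above the median in 3 of 3 tumor mice. The median share was 0 in tumor mice 1 and 3, so there the split set cells with any UMI of these genes against cells with none. The cells above it were deeper as well (median 609.5, 623 and 718 UMIs in mice 1 to 3 against 549, 518 and 523), and 6, 41 and 10 of them held markers of another cell type against 3, 20 and 5. The part of depth and of such cells in these counts was not tested, and the share of all genes higher in 3 of 3 tumor mice was not counted. Taldo1 alone could be tested within tumor and was not called (log2 fold 0.49, SE 0.214, edgeR adjusted p = 0.149). A fit over both tissues tested whether the split differed between them. With edgeR 0 of 8 genes were called, and 0 passed an unadjusted p under 0.05, while 3.42% of 2745 genes were called. The difference, tumor minus blood, was 0.32 for Taldo1 (95% interval -0.14 to 0.78) and -0.20 for Tkt (-1.30 to 0.90). For G6pdx it was 0.85 (-1.12 to 2.82), so intervals as wide as these leave room for large differences.

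When the cells above the median of the granule genes were left out of both tissues, the log2 folds of tumor over blood were -2.20 for Pgd, -1.58 for Taldo1, -1.03 for Tkt, -0.49 for Slc2a3 and -4.27 for Pfkfb4. They were 2.05 for Slc2a1 and 1.60 for Pfkfb3. G6pdx, Pgls and Rpia were below the filter there, G6pdx with 2 UMIs left in tumor and 45 in blood. Tkt and Slc2a3 did not pass the edgeR threshold in these cells. As the genes were chosen on tumor against blood, these values are a description too.

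**Figure D4:**
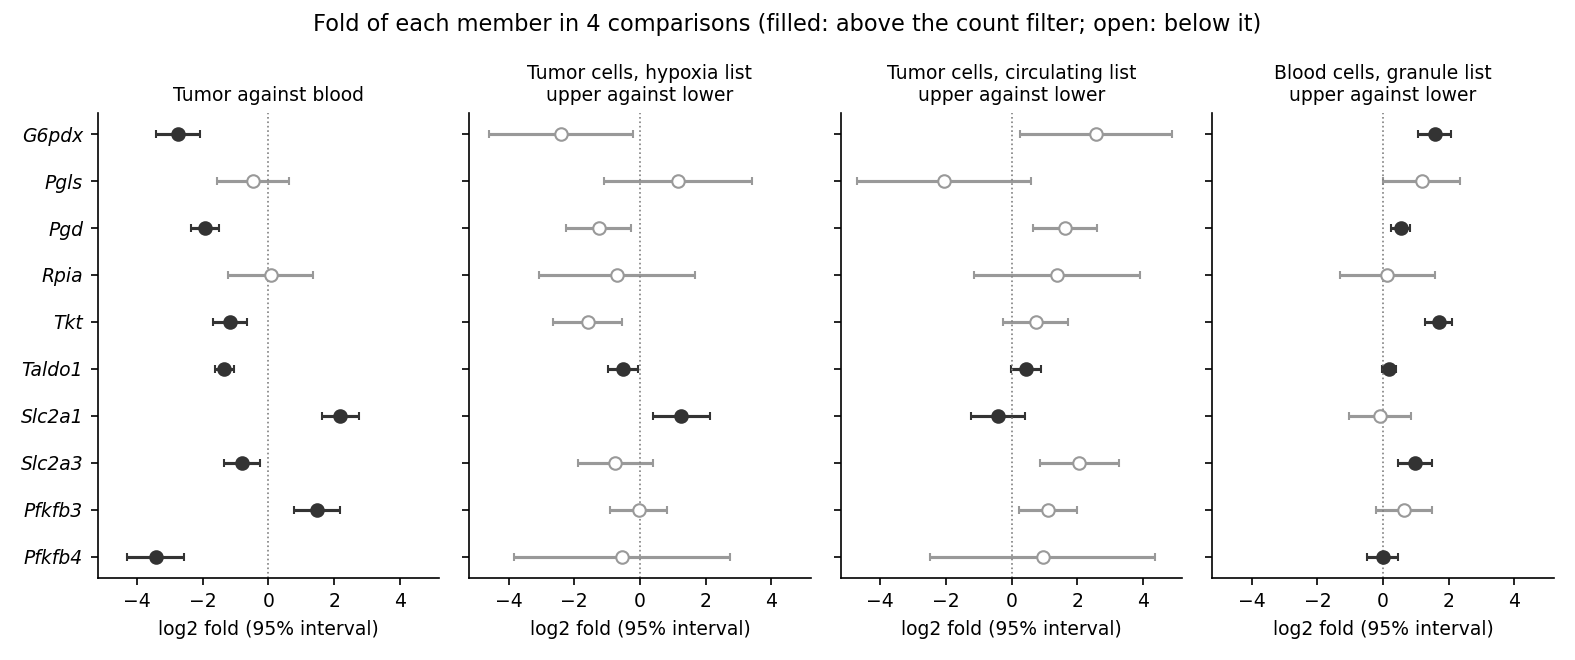
Log2 folds with 95% intervals of the 10 genes in 4 comparisons: tumor against blood, tumor cells above against below the median of the hypoxia genes and of the circulating neutrophil genes, and blood cells above against below the median of the immature granule genes. Filled points passed the low-count filter and open points did not; Slc2a1 lies to the right in the first and second panels, and Tkt and G6pdx lie to the left in the first and to the right in the last.

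Around the pathway, glycolysis genes were mostly higher in tumor neutrophils, the opposite side from the pentose phosphate enzymes. Of 8 lower glycolysis genes, 6 passed the filter and all 6 rose (edgeR), with a median log2 fold of 1.20, where 30.2% of all genes tested rose and 29.8% fell. The lists were drawn up with earlier results of these data known, so the counts describe them and show nothing particular to a list. Among them were Tpi1, triose phosphate isomerase, at 547 ± 65.1 CPM in the tumor mice against 42.8 ± 6.27 CPM in the blood mice (SD, n = 3), and Ldha, lactate dehydrogenase, at 777 ± 98.3 and 230 ± 56.0 CPM. Gapdh had 7 and 9 UMIs and Pgam1 15 and 4, and both stayed below the filter. Of 10 upper glycolysis and bisphosphatase genes, 6 were tested: the hexokinases Hk1 and Hk2 and the phosphofructokinases Pfkl and Pfkp rose (log2 folds 1.19, 3.31, 4.12 and 2.87), Gpi1 fell by 0.65 and Hk3 was not called (0.33). Gpi1, glucose phosphate isomerase, is the step at which the oxidative arm and glycolysis part. Of the other 10 sugar and lactate transporters, 6 were in the files and 2 could be tested: the lactate exporter Slc16a3 rose (1.34), and Slc2a6 was not called (-0.48).

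NADPH enzymes were mixed. None of the 10 other genes of the pathway passed the filter, with 0 to 9 UMIs in tumor and 2 to 20 in blood, H6pd having 1 and 20. Of 8 other makers of NADPH or NADP, 2 were tested: Nadk, the kinase that makes NADP, fell by 1.51 on the log2 scale, from 289 ± 40.0 CPM in blood to 81.6 ± 37.3 CPM in tumor, and Me2 was not called (1.09). Among users of NADPH, Txnrd1, thioredoxin reductase, rose (2.84), Gsr, glutathione reductase, fell by 1.31, and Cyba, a part of the superoxide-making oxidase, fell by 0.49. Cybb, Ncf1 and Ncf4 were not called (0.02, 0.43 and -0.22). Among glycogen genes, Pygl and Ugp2 fell (-1.97 and -0.57) and Gbe1 and Pgm2 rose (2.13 and 1.14). Of 4 regulators tested, Hif1a and Nfe2l2 (Nrf2) rose (1.80 and 1.27), Txnip, a brake on glucose uptake, fell by 2.12, and Bach1 was not called (-0.55).

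**Figure D5:**
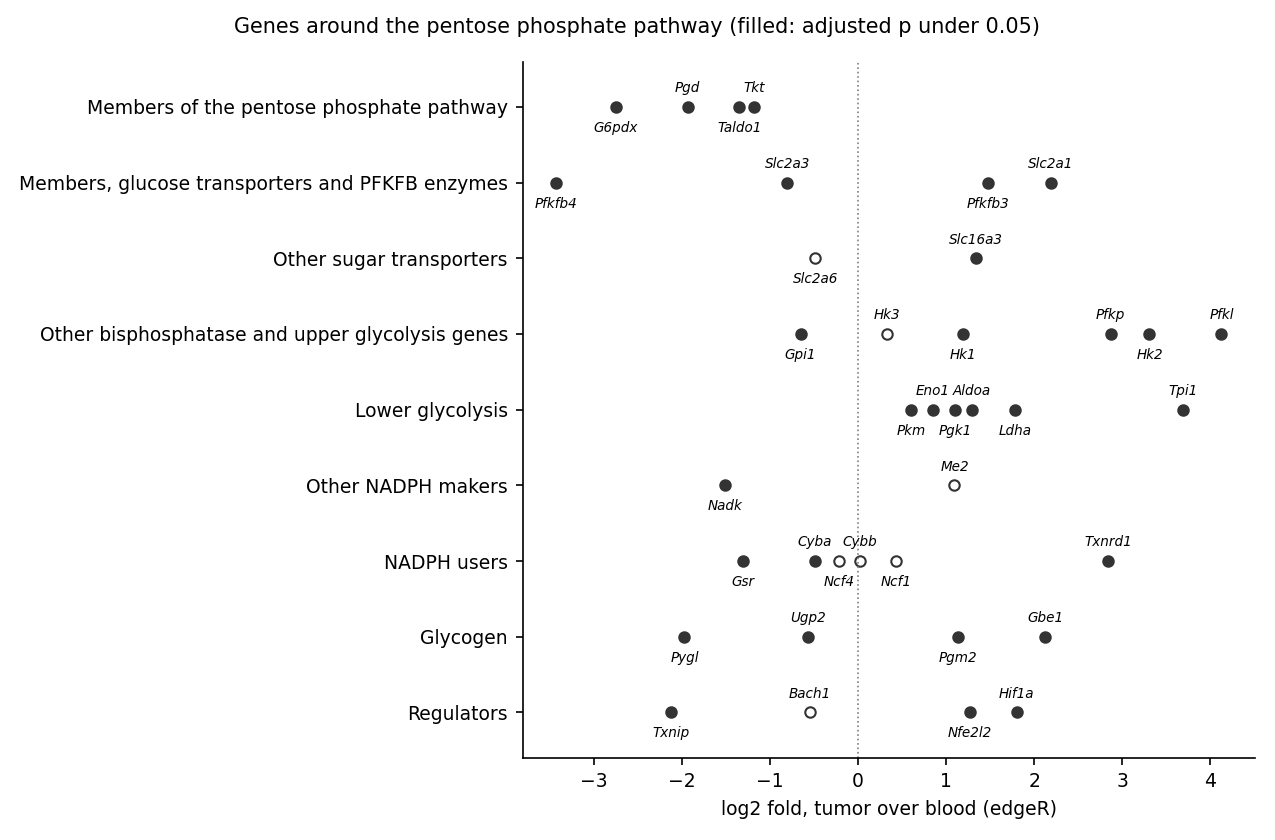
Log2 fold of tumor over blood for tested genes of the lists around the pentose phosphate pathway, 1 line per list; filled points had an edgeR adjusted p under 0.05 and open points did not. All 4 tested enzymes of the pathway lie left of 0 and all 6 lower glycolysis genes lie right of it.

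Inside the tumor, the same lists were read in the hypoxia split. All 5 lower glycolysis genes tested (Aldoa, Tpi1, Eno1, Pkm and Ldha) rose in the cells above the median, with a median log2 fold of 1.33 against 0.05 over all genes tested, where 17% of all genes tested rose, and so did Hk2 (1.11) and Pfkp (1.31). Slc16a3 fell by 0.72, Pygl, glycogen phosphorylase, by 1.81, Gsr by 0.79 and Ncf1 by 0.79 (edgeR). Nfe2l2, which was higher in tumor than in blood, fell by 0.54 in the cells above the median, whereas Txnrd1 rose by 0.74 (edgeR). Hk2 passed the filter only through the cells above the median and Pygl only through those below it. In the circulating neutrophil split Gsr (0.91), Ncf1 (1.17), Pygl (1.89), Slc16a3 (0.93) and Hif1a (0.93) rose, and Txnrd1, Tpi1 and Aldoa fell (-0.99, -1.11 and -0.52). Pygl passed the filter there only through the cells above the median. These 2 splits share their cells and are not independent. In the granule split of blood, the oxidase genes Cybb (4.04), Ncf1 (1.52) and Ncf4 (0.43) rose, and so did Hk3 (1.21), Gpi1 (0.53), Pygl (0.55), Slc16a3 (0.77), Pkm (0.54) and Aldoa (0.47), while Txnip fell by 0.54 (edgeR). Cybb passed the filter only through the cells above the median.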

How the data were processed

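Drop-seq RNA and hashtag libraries were made from tumor and blood, 1 of each per tissue. The authors deposited UMI counts (RNA) and hashtag counts for each barcode, both raw. The submitters' processing notes name STAR and mm10, without versions. How reads were assigned to genes, and whether barcodes were filtered, is not given in the sources used here. The files list 15901 (tumor) and 15236 (blood) genes and 10000 barcodes each, and a gene listed in 1 file was given 0 in the other.

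Barcodes with at least 200 detected genes (963 and 1541) and at most 15% mitochondrial UMIs (947 and 1534) were kept. A cell was given to a mouse when at least 70% of its hashtag counts came from 1 hashtag, which left out 103 and 154 barcodes, and 3 and 5 without hashtag counts. No other doublet caller was run. UMIs were summed per mouse and tissue, or per mouse and group of cells, and compared with edgeR 4.0.16 (R 4.3.3): quasi-likelihood test, default low-count filter, TMM scaling, Benjamini-Hochberg adjustment at 0.05. Folds of genes below the filter come from the fit without it. Groups of cells came from the same mouse, so the mouse was a block there. The deviations of the groups from their means correlated within a mouse at 0.04 to 0.19. Between tissues, p-values measure the spread between mice within 1 library per tissue. In the splits the mouse was a block, so they measure how steady the difference between its groups of cells was over 3 mice. A gene's variance is estimated partly from the other genes, so a small p-value does not rest on 3 mice alone. Expected shares of cells were exact over all draws of 441 UMIs, a depth set by the 25th percentile in tumor, and cells with fewer UMIs were left out of them. Intervals of counts and shares are exact (Clopper-Pearson or Poisson, 95%) and cover counting error only. On simulated counts edgeR recovered, between tissues, 41 of 88 genes with a 2-fold and 98 of 100 with a 4-fold change, and 66 of 90 and 102 of 102 in the blood split. Alternatives included DESeq2 1.42.0 and HTODemux of Seurat 5.3.0. Genes with similar names, G6pd2 and Tktl1, had at most 2 UMIs in a tissue.

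The 10 genes, the lists and the named pathway genes were chosen with earlier results of these data known: all 10 genes are reported, listed pathway genes that passed the test between tissues may be named, and the 3 most alike genes have the smallest root mean square distance. The pathway genes named within a tissue were those past the threshold there. Some listed genes are not reported here.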

Additional observations from a re-analysis of the deposited data

Results flagged for a closer look

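Slc2a3 stood out in barcodes with 20 to 60 UMIs, which no comparison used. It reached 194 CPM there in tumor and 405 CPM in blood, and in both tissues the exact interval lay above that of the assigned cells, where it was at 83.8 and 152 CPM.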

How the results depend on the processing

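Over the alternatives, the log2 folds of tumor over blood ranged from -3.51 to -2.48 for G6pdx, -2.39 to -1.85 for Pgd, -1.72 to -0.92 for Tkt, -1.63 to -1.29 for Taldo1, 1.71 to 2.44 for Slc2a1, -1.49 to -0.49 for Slc2a3, 1.13 to 1.89 for Pfkfb3 and -4.27 to -2.74 for Pfkfb4. Of the 10, 5 were called without the upper granule cells, where G6pdx was below the filter and has no value in its range. Nothing is read from calls on this contrast, which chose the genes. The deviations of same-numbered tumor and blood sums correlated at 0.02, 0.01 and -0.02, and 1 of 3 tumor sums correlated best with its own number. Correlations this weak cannot show whether a number marks the same mouse in both tissues. A replicate block gave 1973 called genes against 2205. Called genes were 1414 at 5% mitochondrial UMIs and 1337 without the upper granule cells, the latter chosen after seeing the data, as were the split within 5 bins of depth and the granule split of tumor cells. Leaving out a mouse gave 1682 to 2355 called genes.

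In the hypoxia split 323 genes were called, 141 with DESeq2, 153 at 300 detected genes, 118 at 90% of hashtag counts and 114 to 302 without a mouse. Of the 10, 1 was called, 0 without the filter, with DESeq2, at 300 genes, 5% mitochondrial UMIs or 90% of hashtag counts, 2 without other-type cells and 0 to 1 without a mouse. In the circulating split 295 were called, 98 with DESeq2, 169 at 300 genes, 59 at 90% of hashtag counts and 6 to 282 without a mouse (6 without mouse 3). Of the 10, 0 were called, 1 without the filter or with the outer 2 of 3 equal groups of cells, and 0 to 2 without a mouse.

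In the granule split 425 were called, 88 with DESeq2, 246 at 5% mitochondrial UMIs, 240 at 90% of hashtag counts, 125 without other-type cells, 86 to 294 without a mouse (86 without mouse 1) and 100 in tumor cells. Of the 10, 4 were called, 2 with DESeq2, at 5% mitochondrial UMIs, at 90% of hashtag counts, without other-type cells or within 5 bins of depth, 1 to 4 without a mouse and 0 in tumor cells. Pfkfb4 changed sign near 0 with DESeq2 size factors (0.0024), no filter (0.018), DESeq2 (0.0043), without other-type cells (0.072) and leaving out a mouse (-0.16 to 0.18), and Taldo1 without scaling (-0.0606). The cause was not tested. Without the replicate block 306, 264 and 321 genes were called in the 3 splits, and the same number of the 10 as with it. Tumor mouse 1 has 106 cells and each tissue 1 library.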

Other observations

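Barcodes that passed the filters but were given to no mouse, 106 in tumor and 159 in blood, entered no comparison. Taldo1 stood at 519 CPM in those of tumor and 1716 CPM in those of blood, Pgd at 157 and 441 CPM, G6pdx at 24.2 and 128 CPM and Pfkfb4 at 36.2 and 136 CPM. Slc2a1 stood at 169 and 88.2 CPM, Pfkfb3 at 169 and 56.1 CPM and Slc2a3 at 72.5 and 88.2 CPM.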
